A study of Mus musculus with 2 samples.

Results

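The data describe 44 genes that act in S phase, chosen by name from the machinery that copies DNA, among the 24369 gene rows of a table of transcript levels. All 44 symbols were found, and all 44 had a value above 0 in both libraries. The RNA came from type II pneumocytes, also called alveolar type 2 cells, sorted from the lung, all from wild-type C57BL6 mice. The ages were 7 days after birth (P7) and 28 days after birth (P28), each with 1 library. Nothing in the sources used here gives the sort markers, the number of animals behind a library or their sex. Levels are in RPKM, which corrects read numbers for the length of the transcript and the depth of the library. With 1 library per age, every difference compares these 2 libraries, has no replicate check and carries no p-value.

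Type 2 cells make surfactant and are also the progenitors of the alveolar epithelium, so cycling cells are a normal part of this population in the young lung. DNA replication is prepared in G1, when the origin recognition complex with Cdc6 and Cdt1 loads the MCM ring onto DNA. In S phase, Cdc45 and the GINS complex turn the ring into an active helicase. Primase starts the new strands, polymerases tethered by a PCNA clamp extend them, and ligase joins the fragments. E2F transcription factors drive many of these genes as cells enter S phase, and cyclin E with its kinase promotes that entry.

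Spacing of the lowest RPKM values put about 17600000 reads in the denominator at P7 and 24500000 at P28, and about 5312 and 4160 of the reads fell on the 44 genes. Ratios below are RPKM at P28 over RPKM at P7, so a value under 1 is lower at P28, and each has a 95% exact (Clopper-Pearson) counting interval that covers counting error only. Total RPKM was 108758 and 143071, of which 27.9% and 44.1% fell on the top 10 genes. Xist stood at 52.7 and 0.245 RPKM, while the Y-linked gene Ddx3y was listed at 0 in the P7 library and at 4.01 RPKM in the P28 library. Age and the sex of the animals therefore cannot be told apart in any difference given here.

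Replication genes were lower at P28 at almost every step. Of the 44, RPKM was lower at P28 in 42 (95.5%) and higher in 2, Orc2 and Rfc2, where 61.1% of the 14798 rows above 0 in both libraries were lower. The counting interval lay wholly below 1 for 34 of the 44 (77.3%), against 27.5% of those rows, and wholly above 1 for 0, against 13.3%. Its 10 exceptions, whose intervals included 1, were Orc2, Orc6, Gins4, Prim2, Rfc2, Rfc4, Rfc5, Rpa3, Dut and E2f1. In bulk RNA, fewer cycling cells and less RNA per cell cannot be told apart.

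The size of the difference was moderate. The median ratio was 0.475 over the 44 genes and 0.907 over the 14798 rows. Among rows with a mean of 1 RPKM or more, 13 of the 29 replication genes (44.8%) had a ratio of 0.5 or less, against 4.73% of 9014 rows. Of those 29, 8 reached 1 RPKM only in the P7 library and 0 only in the P28 library. Of the same 29 genes, 21 (72.4%) had an interval wholly below 1, against 32.1%. On the scale of log2(RPKM + 1), which understates the differences of low genes, 35 of the 44 reached 1 RPKM in at least 1 library, and 14 of these did so only through the P7 library. Of all 9653 rows that reached 1 RPKM in at least 1 library, 877 did so only through P7 and 340 only through P28. Of the 35, 3 were at least 2-fold lower (1.96% of 9653 rows were) and 0 were at least 2-fold higher (1.18% of rows). Those 3 were Rrm2, Gins2 and Mcm2, with log2 ratios of -1.46, -1.35 and -1.01. Gins2 and Mcm2 reached 1 RPKM only in the P7 library.

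Rescaling both libraries to the same total moved the median log2 ratio of all measured rows by -0.28 because the P28 total was larger. On that scale all 44 genes were lower, Orc2 and Rfc2 included. Then 42 intervals lay wholly below 1 (53.9% of rows), and 8 genes were at least 2-fold lower (4.02% of rows), while over all measured rows the split went from 114 higher and 189 lower to 62 and 388.

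Most of these transcripts were scarce. The median level of the 44 was 1.98 RPKM at P7 and 0.912 at P28, against 3.29 and 3.07 over all rows that reached 1 RPKM in at least 1 library. At P7, 35 of the 44 reached 1 RPKM, and at P28 21 did. Summed RPKM of the 44 was 122 at P7 and 71.9 at P28, a ratio of 0.588. The clamp gene Pcna alone made up 22.5% and 27% of the sum. The order of the genes was largely kept, with a Spearman rho of 0.87 between the libraries across the 44 genes, which share depth and are not replicates. Rrm2 went from rank 3 to rank 20 and Gins2 from rank 8 to rank 24, while Orc2 went from rank 30 to rank 14 and Rfc5 from rank 34 to rank 19.

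**Figure D1:**
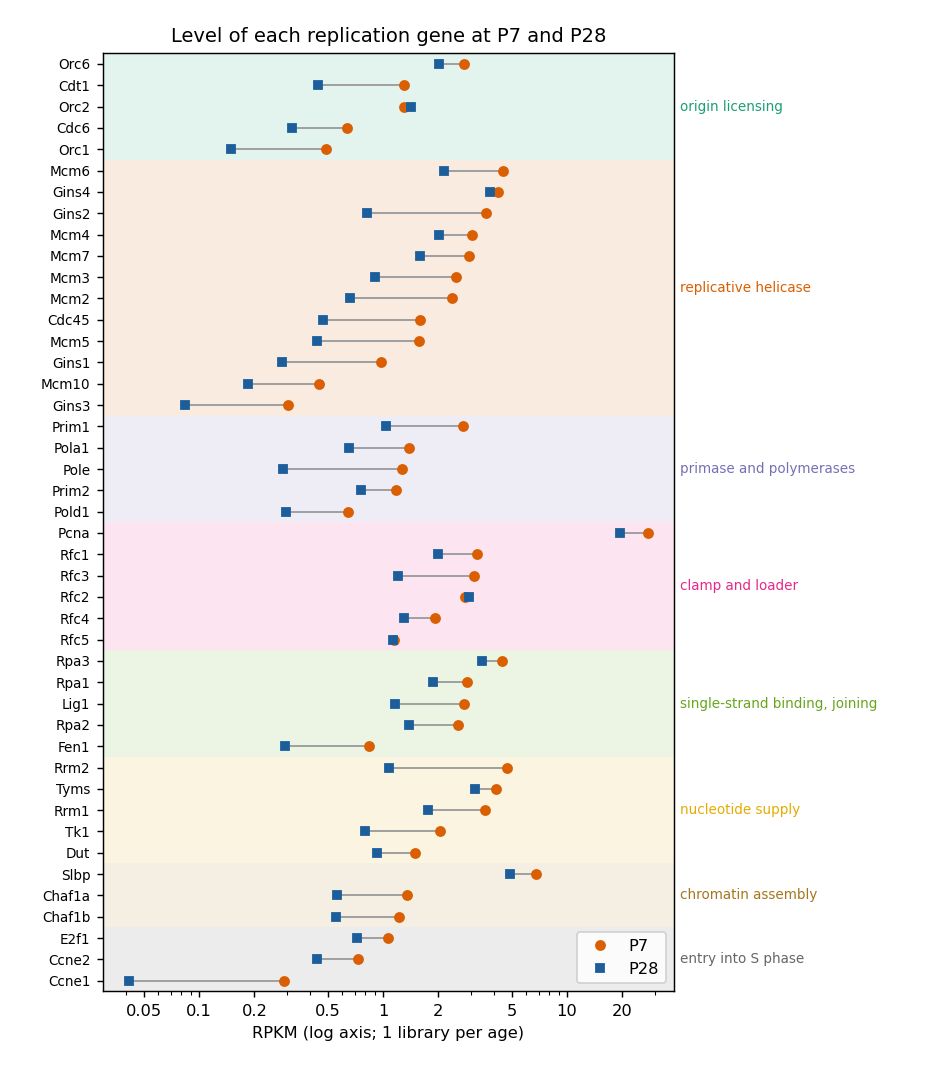
RPKM of each of the 44 genes at P7 (circles) and P28 (squares) on a log axis, grouped by replication step, with 1 library per age. Pcna, at 27.5 and 19.4 RPKM, stands far above the rest, and only Orc2 and Rfc2 have the P28 symbol to the right of the P7 symbol.

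In origin recognition and licensing, 4 of 5 genes were lower at P28 and 3 had an interval wholly below 1. Cdt1, the loading factor that is destroyed once S phase starts, had 1.30 RPKM at P7 and 0.445 at P28, a ratio of 0.344 (0.202 to 0.571). Cdc6, its partner in loading the MCM ring, had 0.640 and 0.320 RPKM (ratio 0.50, 0.298 to 0.834). Orc1, the origin recognition subunit that cycles in mammalian cells, had 0.490 and 0.148 RPKM (ratio 0.303, 0.135 to 0.635). These were the 3 genes with such an interval. Orc2, a core subunit, had 1.29 and 1.42 RPKM (ratio 1.10, 0.781 to 1.56), and Orc6 2.75 and 2.02 (ratio 0.734, 0.503 to 1.06). The ratio of Orc1 was 3.62-fold below that of Orc2 (1.58 to 8.73). Other subunits of the complex, outside the 44, had ratios of 0.836 (0.701 to 0.998) for Orc3, 0.662 (0.507 to 0.866) for Orc4 and 0.820 (0.563 to 1.19) for Orc5.

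The replicative helicase was the step with the lowest median ratio, 0.331, and all 12 of its genes were lower at P28, 11 of them with an interval wholly below 1. Each of the 6 subunits of the MCM ring had such an interval, and together they summed to 16.9 RPKM at P7 and 7.75 at P28. Mcm2 (chromosome 6, 88883474 to 88898780, minus strand) had 2.36 and 0.663 RPKM, about 140 and 55 reads, a ratio of 0.281 (0.202 to 0.387). Mcm5 had 1.57 and 0.437 RPKM (ratio 0.279, 0.183 to 0.412) and Mcm3 2.48 and 0.902 (ratio 0.364, 0.267 to 0.492). The other three subunits were less far apart. Mcm6 had 4.48 and 2.13 RPKM (ratio 0.475, 0.394 to 0.574), Mcm7 2.94 and 1.60 (ratio 0.543, 0.423 to 0.696) and Mcm4 3.04 and 2.02 (ratio 0.664, 0.536 to 0.815). With the exons of all annotated Mcm7 transcripts pooled, they overlap the microRNA genes Mir25 and Mir93 on the same strand.

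Factors that activate the ring differed to unequal extents. Gins2 (chromosome 8, 120578633 to 120589304, minus strand) had 3.63 RPKM at P7 and 0.818 at P28, about 249 and 78 reads, and was 4.44-fold lower (3.44 to 5.82). Its partner Gins4 had 4.20 and 3.82 RPKM, a ratio of 0.908 (0.689 to 1.19). The ratio of Gins2 was 4.03-fold below that of Gins4 (2.75 to 5.90), although the 2 proteins belong to the same 4-subunit complex. Gins1 and Gins3 were scarcer, with 0.980 and 0.281 RPKM for Gins1 (ratio 0.286, 0.0938 to 0.656) and 0.306 and 0.0843 for Gins3 (ratio 0.275, 0.0722 to 0.752). Cdc45, which completes the active helicase, had 1.59 and 0.474 RPKM (ratio 0.298, 0.179 to 0.506). Mcm10, which helps to start it, had 0.446 and 0.186 RPKM (ratio 0.416, 0.222 to 0.747).

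Primase and polymerase genes were all lower at P28, 4 of the 5 with an interval wholly below 1. Pole (chromosome 5, 110286306 to 110337474, plus strand), the catalytic subunit that copies the leading strand, had 1.27 RPKM at P7 and 0.285 at P28, about 159 and 50 reads, and was 4.44-fold lower (3.21 to 6.23). Pold1, the lagging-strand counterpart, had 0.647 and 0.297 RPKM (ratio 0.459, 0.267 to 0.779). Pola1, the X-linked catalytic subunit of the priming polymerase, had 1.38 and 0.654 RPKM (ratio 0.474, 0.357 to 0.628). Thus the ratio of Pole was 2.10-fold below that of Pola1 (1.36 to 3.27) and 2.04-fold below that of Pold1 (1.07 to 3.83). Primase showed 2.70 and 1.03 RPKM for its catalytic subunit Prim1 (ratio 0.383, 0.254 to 0.568) and 1.18 and 0.761 for Prim2 (ratio 0.646, 0.403 to 1.03).

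Clamp and clamp loader genes had the highest median ratio of any step, 0.693, and 3 of 6 intervals wholly below 1. That order depends on the scale. The median log2 ratio of (RPKM + 1) over measured genes was -0.41 here, against -0.31 for licensing and -0.26 for S-phase entry. Pcna (chromosome 2, 132249162 to 132253314, minus strand), the ring that tethers the polymerases and also serves in DNA repair, had 27.5 RPKM at P7 and 19.4 at P28, a ratio of 0.704 (0.635 to 0.782). Its annotated pseudogenes Pcna-ps1 and Pcna-ps2 could take or give reads. At P7 only 4.63% of the measured rows lay above Pcna, and at P28 6.96% did. Of the 5 loader subunits, Rfc3 had the lowest ratio, with 3.13 and 1.205 RPKM (0.385, 0.256 to 0.581), and Rfc1, the large subunit, had 3.22 and 1.99 (0.617, 0.516 to 0.740). Rfc2 had 2.81 and 2.95 RPKM (ratio 1.05, 0.892 to 1.24), Rfc5 1.15 and 1.13 (ratio 0.982, 0.690 to 1.42) and Rfc4 1.92 and 1.31 (ratio 0.681, 0.428 to 1.08). The ratio of Rfc3 was 2.73-fold below that of Rfc2 (1.74 to 4.25).

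Single-strand binding and fragment joining genes were lower at P28 in 5 of 5, with 4 intervals wholly below 1. Lig1, the ligase that seals lagging-strand fragments, had 2.76 and 1.16 RPKM (ratio 0.419, 0.319 to 0.549). Fen1, the nuclease that trims them, had 0.843 and 0.293 RPKM (ratio 0.347, 0.174 to 0.662). Subunits of replication protein A, which coats single-stranded DNA in repair as well as replication, were also lower, and no difference from Lig1 or Fen1 was computed. Their ratios were 0.656 (0.534 to 0.806) for Rpa1 at 2.85 and 1.87 RPKM, 0.546 (0.388 to 0.773) for Rpa2 at 2.55 and 1.39, and 0.773 (0.530 to 1.17) for Rpa3 at 4.45 and 3.44.

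Nucleotide supply genes were all lower at P28, led by Rrm2. Rrm2 (chromosome 12, 24708241 to 24714146, plus strand), the S-phase subunit of ribonucleotide reductase, had 4.71 RPKM at P7 and 1.08 at P28, about 182 and 58 reads, and was 4.36-fold lower (3.24 to 5.99). Rrm1, the large subunit, had 3.57 and 1.75 RPKM (ratio 0.491, 0.401 to 0.598), and the ratio of Rrm2 was 2.14-fold below it (1.49 to 3.12). Thymidine kinase gene Tk1 had 2.03 and 0.802 RPKM (ratio 0.395, 0.239 to 0.636). Tyms, thymidylate synthase, had 4.12 and 3.17 RPKM (ratio 0.770, 0.641 to 0.926), and Dut, which keeps uracil out of DNA, 1.49 and 0.923 (ratio 0.618, 0.383 to 1.02).

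Chromatin assembly genes had intervals wholly below 1 in 3 of 3. The large subunit of chromatin assembly factor 1, Chaf1a, had 1.36 and 0.565 RPKM (ratio 0.417, 0.311 to 0.558) and Chaf1b 1.22 and 0.553 (ratio 0.454, 0.267 to 0.761). Slbp, which binds the stem-loop of histone messages, was the second most abundant of the 44, with 6.76 and 4.91 RPKM (ratio 0.726, 0.594 to 0.881). Of the regulators of S-phase entry, Ccne1, cyclin E1, was the scarcest and had 0.290 and 0.0416 RPKM from about 10 and 2 reads (ratio 0.143, 0.0153 to 0.673). Ccne2 had 0.735 and 0.438 RPKM (ratio 0.597, 0.365 to 0.992) and E2f1 1.06 and 0.722 (ratio 0.679, 0.456 to 1.04).

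**Figure D2:**
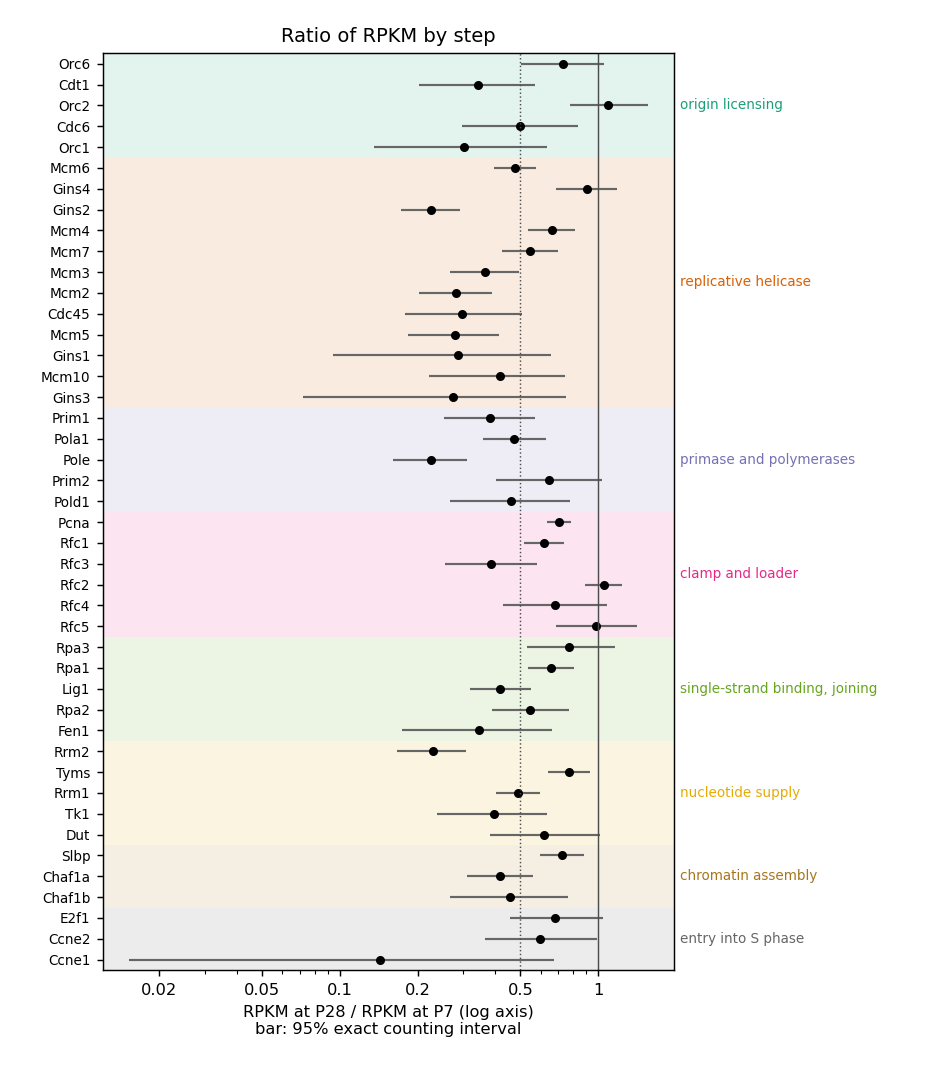
Ratio of RPKM at P28 over P7 for each gene on a log axis, by step, with 95% exact counting intervals as bars, a solid line at 1 and a dotted line at 0.5. Gins2, Pole and Rrm2 have intervals that end at or below 0.312, while Orc2, Rfc2, Rfc5 and Gins4 sit near 1.

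The fold comparisons between members, 10 pairs in all, were chosen after the values were seen and carry no adjustment, and each interval is an exact conditional one for counting error. Exons of 17 of the 44 genes overlap another annotated gene, among them Gins2, Pole, Orc2, Rfc2 and Rfc5, and whether strand entered the counting is not stated. For the 25 genes with neither an overlap nor a named pseudogene, RPKM was lower at P28 in 25 (61.1% of rows were). Of these, 20 had an interval wholly below 1 (27.5% of rows). Those shares are over all rows above 0 in both libraries, whether or not they overlap another gene.

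Other replication genes, 61 in a list that held none of the 44, were lower at P28 in 53 (61.1% of rows were) and higher in 8, with a median ratio of 0.682. Of these 61, 39 had an interval wholly below 1 (27.5% of rows) and 4 one wholly above (13.3% of rows). Among 45 with 1 RPKM or more at either age, the log2(RPKM + 1) scale put 4 at 2-fold lower or beyond (1.96% of rows) and 0 at 2-fold higher (1.18% of rows). Of the 45, 9 got there only through the P7 library (877 of 9653 measured rows did), E2f8 and Uhrf1 among them. Those 4 were Ccna2 (cyclin A2, 5.92 and 1.80 RPKM), Tipin (a fork protection factor, 6.66 and 2.65), E2f8 (an atypical E2F, 1.60 and 0.231) and Uhrf1 (which brings the maintenance methyltransferase to new DNA, 1.60 and 0.301). The 4 with the highest RPKM differed less. They were Rbbp7, a histone chaperone (11.1 and 8.51 RPKM), Samhd1, a dNTP hydrolase (9.18 and 6.66), Top1, a topoisomerase (8.22 and 9.85), and Supt16, a histone chaperone subunit (7.86 and 6.43). Intervals wholly above 1 were those of Top1 (ratio 1.2, 1.08 to 1.33), Pole3 (1.58, 1.15 to 2.18), Pole4 (1.48, 1.17 to 1.89) and E2f2 (1.33, 1.15 to 1.53). Pole3 and Pole4 are small accessory subunits of the polymerase whose catalytic gene Pole was 4.44-fold lower. With equal totals, 0 of the 61 had an interval wholly above 1. As reference points for proliferation, Mki67 had 14.8 and 3.56 RPKM (ratio 0.241, 0.223 to 0.261) and Top2a 9.41 and 2.69 (ratio 0.286, 0.251 to 0.324).

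Histone genes of the replication-dependent clusters, many of whose messages are made in S phase, held 68 rows. Of these, 29 reached 1 RPKM at either age, 16 of them only through the P7 library (877 of 9653 measured rows did). Of the 29, 8 were at least 2-fold lower at P28 on the log2(RPKM + 1) scale (1.96% of measured rows) and 0 at least 2-fold higher (1.18%). Linker histone genes summed to 39.2 RPKM at P7 and 14.0 at P28, with 28.3 and 11.3 for Hist1h1e, 3.95 and 1.24 for Hist1h1c, and 3.86 and 0.717 for Hist1h1b. The core histone genes among the 8 included Hist1h2bg (4.03 and 0.30 RPKM), Hist1h2bl (7.95 and 1.93), Hist1h2bm (4.54 and 1.46) and Hist1h2ak (2.44 and 0.573). The eighth, Hist1h3i, had 1.29 RPKM at P7 and was in effect 0 at P28. Other abundant rows did not share this direction or size, namely Hist1h4d (51.1 and 42.0 RPKM), Hist1h2bc (13.6 and 17.7) and Hist2h2be (5.77 and 7.30). Many of these genes are near-identical copies, and 17 of the 68 rows held a value above 0 but under 1e-06. Reads were therefore shared out between copies, and no counting interval is given.

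Markers of other lung cells differed in both directions. Their counts stand beside the 61.1% of rows above 0 in both libraries that were lower at P28. The 14 endothelial markers summed to 65.4 RPKM at P7 and 31.2 at P28, and 13 were lower, with a median ratio of 0.385. Of the 14 fibroblast markers, 11 were lower and 3 higher, with sums of 68.7 and 37.0 RPKM. The 7 erythroid markers in the table summed to 33.6 and 1.15 RPKM, and the 4 smooth muscle markers to 3.28 and 0.983. The 4 mesothelial markers summed to 6.83 and 4.01 RPKM through Msln (5.24 and 1.19), while Upk3b (ratio 1.66, 1.26 to 2.20) and Lrrn4 (ratio 2.43, 1.45 to 4.33) had intervals wholly above 1. Airway markers ran the other way and summed to 7212 RPKM at P7 and 18760 at P28. Scgb1a1 alone had 6764 and 18100 RPKM (ratio 2.68), and the ratio of Cyp2f2 was 2.07. Of the 8, 6 were higher at P28, and 4 had an interval wholly above 1 (13.3% of rows), or 2 with equal totals. The 6 included Krt5 (0 and 0.0186 RPKM) and Trp63 (0 and 0.0336), which lie near 0 and have intervals that include 1. Leukocyte markers summed to 10.5 and 8.60 RPKM over 14 genes, with Marco, C1qa and C1qb at 0 in both libraries. The 8 type 1 markers summed to 326 and 191 RPKM, with 7 lower. Type 2 markers were abundant at both ages, with a lowest value of 60.1 RPKM at P7 and of 47.5 at P28, and 9 of 12 were higher at P28. With equal totals, 7 of these 12 were lower at P28, each with an interval wholly below 1 (53.9% of rows). The other 5 had one wholly above. Their levels do not measure purity, and the airway marker Scgb1a1 stood above all of them but Sftpc at both ages. What part other cells had in the replication genes' difference was not tested.

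**Figure D3:**
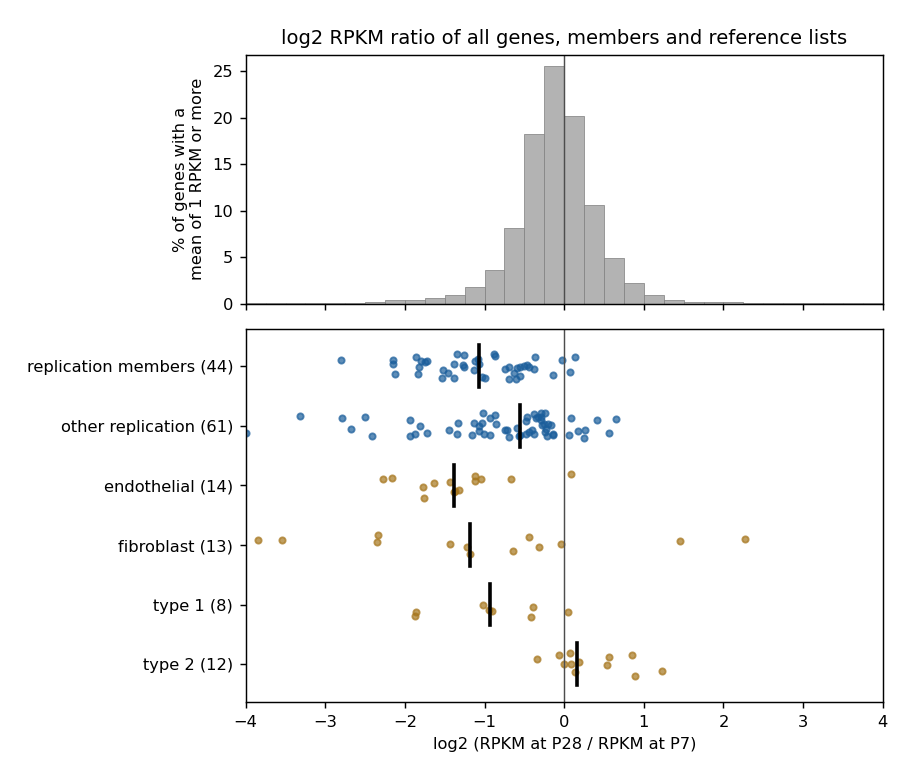
Upper panel, share of all 9014 rows with a mean of 1 RPKM or more in bins of log2 RPKM ratio, with values beyond 4 placed in the end bins. Lower panel, each gene of 6 lists above 0 in both libraries (black bar, median; Chtf18 is drawn at the left edge), in which the 44 replication genes lie left of most rows, as do the endothelial, fibroblast and type 1 markers.

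Promoter sequence was examined because E2F factors are known to drive many of these genes. Windows of 250 bases before to 50 after the transcription start, from RefSeq on GRCm38.p6, were found for 36 of the 44 genes. These RefSeq starts can differ from the gene bounds given above, so presence and position of a word hold for the RefSeq start only. The E2F words searched on both strands were TTTCCCGC, TTTCGCGC, TTTGCCGC and TTTGGCGC, which can overlap each other on opposite strands. A word was found in 12 of the 36 (33.3%), against 2.61% of the 27025 genes with a window and 4.67% of the 7392 with a window that reached 1 RPKM in at least 1 library. The 12 were Orc1, Cdc6, Cdt1, Mcm3, Mcm5, Mcm6, Mcm7, Gins3, Pola1, Pold1, Rfc3 and Lig1, and 5 of them held more than 1 word. Members were picked as S-phase genes, many of them known E2F targets, so this share is a description of the choice and not an independent result.

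The following stretches of 30 bases show a word, in capitals, in 11 of these genes, so that its strand and distance from the start can be compared. They are written on the strand of the gene, 5′ to 3′, so a word beginning with GCG is the reverse complement of a searched one. Positions are counted from the RefSeq start site, with negative values before it.

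Orc1, chr4:108579416-108579445, plus strand, first base of the word at -27: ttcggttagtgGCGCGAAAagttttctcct
Cdc6, chr11:98908002-98908031, plus strand, first base of the word at -138: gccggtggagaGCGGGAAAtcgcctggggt
Cdt1, chr8:122568035-122568064, plus strand, first base of the word at 33: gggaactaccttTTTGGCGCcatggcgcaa
Mcm3, chr1:20820263-20820292, minus strand, first base of the word at 39: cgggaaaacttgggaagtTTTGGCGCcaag
Mcm5, chr8:75109345-75109374, plus strand, first base of the word at -153: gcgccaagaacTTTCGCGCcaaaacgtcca
Mcm6, chr1:128359734-128359763, minus strand, first base of the word at -47: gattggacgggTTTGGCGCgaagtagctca
Mcm7, chr5:138171849-138171878, minus strand, first base of the word at 17: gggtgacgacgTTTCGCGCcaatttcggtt
Gins3, chr8:95633507-95633536, plus strand, first base of the word at -41: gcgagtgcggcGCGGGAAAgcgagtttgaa
Pola1, chrX:93632275-93632304, minus strand, first base of the word at -138: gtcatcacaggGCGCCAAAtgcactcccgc
Rfc3, chr5:151651200-151651229, minus strand, first base of the word at -10: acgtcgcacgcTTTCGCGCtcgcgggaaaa
Lig1, chr7:13278841-13278870, plus strand, first base of the word at 27: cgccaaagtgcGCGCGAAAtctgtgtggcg

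The words had no fixed place or strand. Of the 18 words in these windows, 11 began before the start site and 7 after it. The 12 genes with a word had ratios between 0.275 and 0.543, with a median of 0.402, and none lay near 1. Those of the 24 genes with a window but no word ran from 0.143 to 1.10, with a median of 0.582. Both Rrm2 (0.230) and Orc2 (1.10) were among the 24, so a low ratio was also found without the word. No test was made on this split. The 8 genes without a window had a median of 0.622 (0.225 to 1.05).

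**Figure D4:**
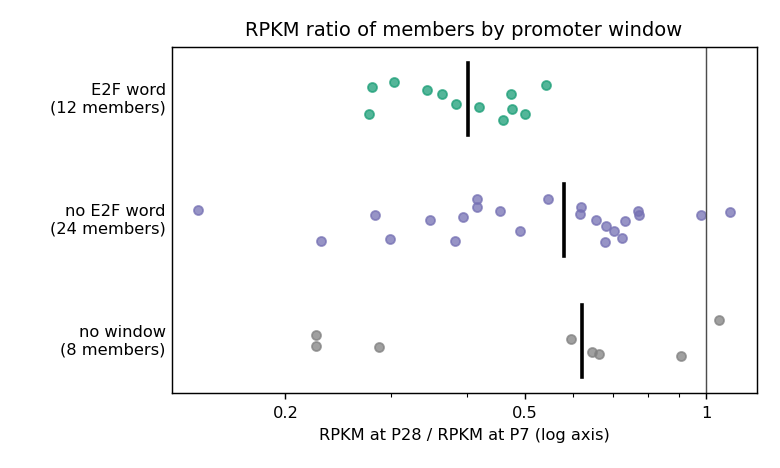
Ratio of RPKM at P28 over P7, on a log axis, for members with an E2F word in the promoter window, with a window but no word, and without a window; black bars are medians. The 12 with a word lie between 0.275 and 0.543, and the 24 without a word spread from 0.143 to 1.10.

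The CCAAT box, searched as CCAAT on both strands, was in 23 of the 36 windows' genes (63.9%), against 41.1% of all genes with a window and 42.7% of the expressed ones. The cell cycle homology word TTTGAA, known from G2 and mitosis genes, was in 4 of 36 (11.1%), against 20.2% and 14.0%. Both short words occur often by their length alone. The 4 genes with TTTGAA had a median ratio of 0.290 (0.275 to 0.347), against 0.483 for the 32 without it. A low, narrow range was thus not particular to the E2F words. For CCAAT the medians were 0.474 with the word and 0.459 without. Neither split was tested. The 250 bases before the RefSeq start of 3 genes are given in full because they show different arrangements of these words, in capitals. Those of Pcna and Rrm2 run partly into the gene bounds given above. Mcm5 has a pair of overlapping E2F words and 2 CCAAT boxes. Rrm2, among the genes that differed most, and Pcna, the most abundant, have a CCAAT box (in Pcna on the opposite strand) and no E2F word in this window.

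Mcm5, chr8:75109259-75109508, plus strand: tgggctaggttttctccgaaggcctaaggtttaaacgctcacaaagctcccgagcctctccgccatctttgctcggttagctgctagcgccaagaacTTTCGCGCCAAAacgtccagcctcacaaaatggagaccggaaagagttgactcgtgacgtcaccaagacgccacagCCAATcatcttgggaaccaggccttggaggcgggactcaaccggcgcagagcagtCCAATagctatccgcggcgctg
Rrm2, chr12:24708004-24708253, plus strand: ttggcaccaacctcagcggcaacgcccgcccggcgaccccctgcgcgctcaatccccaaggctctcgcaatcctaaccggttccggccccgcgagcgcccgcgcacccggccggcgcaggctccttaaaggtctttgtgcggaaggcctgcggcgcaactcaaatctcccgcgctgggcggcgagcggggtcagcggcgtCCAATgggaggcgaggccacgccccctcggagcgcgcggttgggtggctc
Pcna, chr2:132253181-132253430, minus strand: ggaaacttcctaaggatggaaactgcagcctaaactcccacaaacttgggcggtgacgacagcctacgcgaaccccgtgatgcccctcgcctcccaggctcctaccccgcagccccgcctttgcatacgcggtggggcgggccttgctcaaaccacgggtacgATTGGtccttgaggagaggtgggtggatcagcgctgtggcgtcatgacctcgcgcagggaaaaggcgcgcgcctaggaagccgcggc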

How the data were processed

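The authors deposited RPKM values, per the file headers, in a table whose sample columns each matched 1 sample title. TopHat, TopHat2 2.0.9, GRCm38 and mm10 appear in the submitters' processing notes with no role or order. Which program and annotation gave RPKM is not given in the sources used here. The table held 199 values above 0 but under 1e-06, so reads shared by several genes were divided between them.

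Depth came from low values. Multiplied by transcript length, 63.7% of 1882 scarce genes in the P7 library and 63.1% of 1727 in the P28 library lay within 0.05 of a whole number of reads. By chance 10% would for a spacing fixed beforehand, but the spacing was chosen as the best one for these same values. Lengths were those of GENCODE transcripts on GRCm38 with a RefSeq match, and 13 of the 44 members had several and took their mean, so their reads are approximate. Reads are counted without molecular identifiers, so intervals cover counting error only. Log2 ratios used a pseudocount of 1 RPKM, and a row counted as measured at 1 RPKM in at least 1 library.

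Python 3.11.15 with NumPy 2.4.6, pandas 2.3.3 and SciPy 1.17.1 was used. On simulated data the depth was recovered from RPKM, and the intervals were tested on the simulated reads themselves. Intervals on reads recovered from RPKM were not tested. Members, steps and lists were chosen with earlier results of these data known. All 44 members are given. Of the other replication genes and the histone genes, those at least 2-fold apart and the 4 most abundant are named. Any other named gene, markers included, was chosen after its values were seen. Markers at least 2-fold apart are not all named. Alternatives changed the pseudocount, filter, scaling and transcript length. No columns were left unused.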

Additional observations from a re-analysis of the deposited data

How the results depend on the processing

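The median log2 ratio of the 35 measured members was -0.53 as reported and stayed negative under every alternative run. It was -0.84 with a pseudocount of 0.1 RPKM, -0.23 with 5 and -0.75 with the same total RPKM in each library, and between -0.51 and -0.44 with the other scalings and filters. The number of members at least 2-fold lower, 3 as reported, was 15 with a pseudocount of 0.1, 0 with 5, 8 with equal totals and 0 with a filter of 5 RPKM, which only Pcna and Slbp passed. It was 2 after setting the median to 0 or with upper quartile scaling, when Mcm2 fell short. Pseudocounts move this number because most members lie near 1 RPKM. Of the 35, 25 had a counting interval wholly below 1, against 26 with the longest transcript length and 33 with equal totals, and 34 of all 44 had one without the filter. Orc2 and Rfc2 had log2 ratios above 0 as reported and below 0 with equal totals, and Rfc5 was also above 0 when the median was set to 0 or the upper quartile was used. No paired analysis was possible because each age has 1 library, and no replicate could be left out. Members under 1 RPKM rest on 2 to 40 reads, so their ratios are wide.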

Other observations

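The E2F family did not move as a block. E2f2, an activator, had 3.64 RPKM at P7 and 4.84 at P28 (ratio 1.33, 1.15 to 1.53), while E2f3, another activator, had 0.847 and 0.417 (ratio 0.492, 0.337 to 0.722). With equal totals, the interval of E2f2 no longer lay wholly above 1. The atypical repressors, themselves made in S phase, were lower, with 0.964 and 0.252 RPKM for E2f7 (ratio 0.262, 0.172 to 0.392) and 1.60 and 0.231 for E2f8 (ratio 0.145, 0.0832 to 0.231). E2f4, which acts mainly in resting cells, had 3.28 and 2.47 RPKM (ratio 0.754, 0.579 to 0.982). The ratios of E2f5 and E2f6 were 0.843 (0.618 to 1.15) and 0.682 (0.527 to 0.895). The pocket protein genes Rb1 and Rbl2 had 4.35 and 3.41 RPKM (ratio 0.785) and 4.65 and 3.69 (ratio 0.795), and Rbl1 had 1.37 and 1.25 (ratio 0.908, 0.712 to 1.17).

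Further genes of origin firing and fork protection, not among the 44, differed to unequal extents. Ticrr, which brings the firing machinery to origins, had 0.505 RPKM at P7 and 0.0509 at P28 (ratio 0.101, 0.0441 to 0.204). Cdc7, the kinase that triggers the MCM ring, had 0.999 and 0.176 RPKM (ratio 0.176, 0.0912 to 0.341), and its activator Dbf4 had 2.51 and 1.31 (ratio 0.524, 0.383 to 0.705). Timeless had 0.578 and 0.0901 RPKM (ratio 0.156, 0.0716 to 0.321) and Clspn 0.479 and 0.131 (ratio 0.273, 0.143 to 0.496). Topbp1 had 4.19 and 2.31 RPKM (ratio 0.553, 0.473 to 0.645), and the interval of Recql4, at 0.125 and 0.0572 RPKM, included 1 (ratio 0.456, 0.105 to 1.32). These genes were named after their values were seen.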
